A study of Homo sapiens with 47 samples.

Results

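The core let-7 family described here comprised 10 of the 1006 entries of a table of mature microRNA counts. The members were picked by name from among let-7 arms with a locus outside the miR-99 and miR-125 clusters, without taking every such arm. They were 6 guide arms (hsa-let-7a-5p, hsa-let-7b-5p, hsa-let-7d-5p, hsa-let-7f-5p, hsa-let-7g-5p and hsa-let-7i-5p) and 4 passenger arms (hsa-let-7a-3p, hsa-let-7b-3p, hsa-let-7d-3p and hsa-let-7f-1-3p), written below without the species prefix. The counts came from small RNA sequencing of 2 human prostate cancer cell lines held for 24 h at 5, 2, 1, 0.5, 0.2 or 0% O2, each level with normoxia controls of its own. PC-3 is a line from a bone metastasis that lacks androgen receptor activity, and 22Rv1 is a line from a relapsed xenograft that expresses the androgen receptor. PC-3 gave 12 hypoxia and 12 normoxia libraries, 2 per group, and 22Rv1 gave 12 hypoxia and 11 normoxia libraries, since the 0.2% O2 level of 22Rv1 had 1 control. The labels give no other treatment, and both lines grew in the same serum-supplemented medium. The labels give no culture or passage for a replicate, so the p-values measure the spread between these libraries, which may be technical.

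MicroRNA genes of the let-7 family are transcribed as long primary RNAs, cut to a hairpin by Drosha and to a short duplex by Dicer. The arm at the 5′ side of the hairpin (5p) is the guide that Argonaute keeps, and the 3p arm is the passenger that is mostly discarded. Guides with the let-7 seed repress growth-promoting mRNAs such as RAS genes, MYC and HMGA2, and the RNA-binding protein LIN28 blocks their maturation. Most let-7 hairpins are also known to need a single uridine added at their 3′ end before Dicer can cut them well.

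The mature sequences show what the guides share and where they part, and RefSeq (GRCh38.p14) held all 10. Capitals mark the seed, bases 2 to 8 from the 5′ end, through which a microRNA finds its targets.
let-7a-5p: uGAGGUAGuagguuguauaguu
let-7b-5p: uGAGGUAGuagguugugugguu
let-7d-5p: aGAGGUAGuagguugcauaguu
let-7f-5p: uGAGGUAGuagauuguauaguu
let-7g-5p: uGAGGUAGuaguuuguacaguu
let-7i-5p: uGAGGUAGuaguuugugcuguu
let-7a-3p: cUAUACAAucuacugucuuuc
let-7b-3p: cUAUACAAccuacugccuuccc
let-7f-1-3p: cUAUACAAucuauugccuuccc
let-7d-3p: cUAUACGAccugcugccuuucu

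All 6 guides carried the seed GAGGUAG, which 11 of the 2370 mature human microRNAs in the RefSeq table share. Counted from the 5′ end and written with the base of let-7a-5p first, let-7f-5p differed from let-7a-5p only by G12A, let-7b-5p by A17G and A19G, and let-7d-5p by U1A and U16C. For let-7g-5p the differences were G12U and U18C, and for let-7i-5p they were G12U, A17G, U18C and A19U. Reads of let-7a-5p and let-7f-5p thus part at a single base, and the counting rule for mismatched reads is not given in the sources used here. Among the passengers, let-7a-3p, let-7b-3p and let-7f-1-3p shared the seed UAUACAA with miR-98-3p, the only other entry of the RefSeq table that has it. The passenger let-7d-3p had UAUACGA, which no other entry of that table carried, and its change from let-7b-3p inside the seed was A7G.

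For each of the 4 passengers, 1 hairpin that holds it together with its guide is shown with each arm in capitals, guide first. MIRLET7A3, which also holds let-7a-5p and let-7a-3p, is not printed.
MIRLET7A1: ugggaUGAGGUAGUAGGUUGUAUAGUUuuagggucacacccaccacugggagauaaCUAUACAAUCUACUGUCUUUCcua
MIRLET7B: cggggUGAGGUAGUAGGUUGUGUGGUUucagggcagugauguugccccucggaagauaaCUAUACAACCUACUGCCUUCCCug
MIRLET7F1: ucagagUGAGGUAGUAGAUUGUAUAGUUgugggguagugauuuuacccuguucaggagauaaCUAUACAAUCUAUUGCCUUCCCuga
MIRLET7D: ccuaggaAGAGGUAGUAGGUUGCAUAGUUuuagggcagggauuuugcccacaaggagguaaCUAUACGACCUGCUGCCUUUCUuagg

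In GRCh38 coordinates, MIRLET7A1 (chr9:94175957-94176036), MIRLET7F1 (chr9:94176347-94176433) and MIRLET7D (chr9:94178834-94178920) lie on the plus strand within 2964 bases. GENCODE release 29 places all 3 in introns of the long non-coding RNA gene AL158152.2. MIRLET7B (chr22:46113686-46113768) and MIRLET7A3 (chr22:46112749-46112822) lie on the plus strand in an exon of the MIRLET7BHG transcript. MIRLET7G (chr3:52268278-52268361, minus strand) is in an intron of WDR82, and MIRLET7I (chr12:62603686-62603769, plus strand) is in an intron of AC048341.1. RefSeq gave let-7a-5p 3 loci, let-7a-3p 2 loci and let-7f-5p 2 loci, the second of let-7f-5p being MIRLET7F2 on chromosome X in an intron of HUWE1. A count of these 3 arms can therefore sum several genes, though the rule for reads matching several loci is not given. The arms let-7f-1-3p, let-7b-3p and let-7d-3p each come from 1 locus. Besides MIRLET7A1 and MIRLET7A3, let-7a-5p comes from MIRLET7A2 on chromosome 11, in an intron of MIR100HG. The count of let-7a-5p therefore need not be confined to loci outside the miR-99 and miR-125 clusters.

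Library totals ran between 960421 and 4327382 counts. The hypoxia-induced miR-210-3p, a target of HIF, was higher in hypoxia in 12 of 12 same-numbered pairs of PC-3 and in 11 of 11 of 22Rv1 (log2 fold change 0.70 ± 0.064 and 1.01 ± 0.073, SE). The 5 microRNAs taken as PC-3 markers summed to 44674 to 53094 CPM in PC-3 and 74.8 to 149 CPM in 22Rv1. The 4 taken as 22Rv1 markers summed to 566 to 1195 CPM in PC-3 and 68525 to 169238 CPM in 22Rv1. Of 6 stromal or smooth muscle markers, miR-143-3p stood out in 2 PC-3 libraries of 5% O2, replicate 1. It had 1161 CPM in the hypoxia library and 1247 CPM in the normoxia library. In the other 22 PC-3 libraries it had at most 27.8 CPM. In 22Rv1 its median was 143 CPM and its highest value 578 CPM. Another of the 6, miR-145-5p, had at most 6.66 CPM in PC-3. The 3 epithelial markers summed to 5830 to 7856 CPM in PC-3 and 822 to 1442 CPM in 22Rv1, but did not go the same way. Medians in PC-3 and 22Rv1 were 5540 and 62.4 CPM for miR-200b-3p and 1161 and 8.07 CPM for miR-205-5p. For miR-203a-3p they were 22.0 CPM in PC-3 and 982 CPM in 22Rv1. The 4 blood or serum markers counted summed to 198 to 344 CPM in PC-3 and 930 to 3192 CPM in 22Rv1. Nearly all of this was miR-486-5p (median 273 CPM in PC-3 and 1747 CPM in 22Rv1), and each of the others had a median of at most 5.86 CPM in either line. The 2 PC-3 libraries high in miR-143-3p were left out as an alternative, given below for part of the results. So were 3 of 22Rv1 that lay apart on the first principal component (5% O2 hypoxia replicate 1, its control, and 0.5% O2 hypoxia replicate 1).

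In normoxia, let-7a-5p was the most abundant member in both lines and let-7f-1-3p the least abundant. The members are 21 or 22 bases long, so CPM (counts relative to library size, scaled by the trimmed mean of M values within a line) were compared between them directly. Adapter ligation favours some sequences over others, so such orders describe reads and not molecules. In PC-3 normoxia libraries (n = 12), mean CPM fell in the order let-7a-5p (72744 ± 6777, SD), let-7f-5p (18054 ± 956), let-7g-5p (9041 ± 488), let-7i-5p (8250 ± 638), let-7b-5p (6332 ± 967) and let-7d-5p (1423 ± 102). The passengers followed with let-7d-3p (335 ± 26.3), let-7a-3p (201 ± 29.2), let-7b-3p (166 ± 24.9) and let-7f-1-3p (34.0 ± 4.44). Neighbours whose ranges overlapped were let-7g-5p with let-7i-5p, let-7i-5p with let-7b-5p, and let-7a-3p with let-7b-3p.

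In 22Rv1 normoxia libraries (n = 11) the order of the first pair was the same, with let-7a-5p at 99939 ± 19367 CPM and let-7f-5p at 23803 ± 4703 CPM. The third place was taken by let-7b-5p (15045 ± 1406), whose range overlapped that of let-7g-5p (13239 ± 1710). Below them stood let-7i-5p (4430 ± 350), let-7d-5p (2918 ± 286), let-7d-3p (461 ± 39.2), let-7a-3p (354 ± 48.1), let-7b-3p (299 ± 21.7) and let-7f-1-3p (35.2 ± 4.40). The ranges of let-7d-3p and let-7a-3p, and of let-7a-3p and let-7b-3p, overlapped. The 6 guides together held 12.1 ± 0.96% of all counts in PC-3 hypoxia libraries (SD, n = 12) and 11.7 ± 0.77% in PC-3 normoxia libraries (n = 12), and 14.7 ± 1.07% in 22Rv1 hypoxia libraries (n = 12) and 16.1 ± 1.12% in 22Rv1 normoxia libraries (n = 11).

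**Figure D1:**
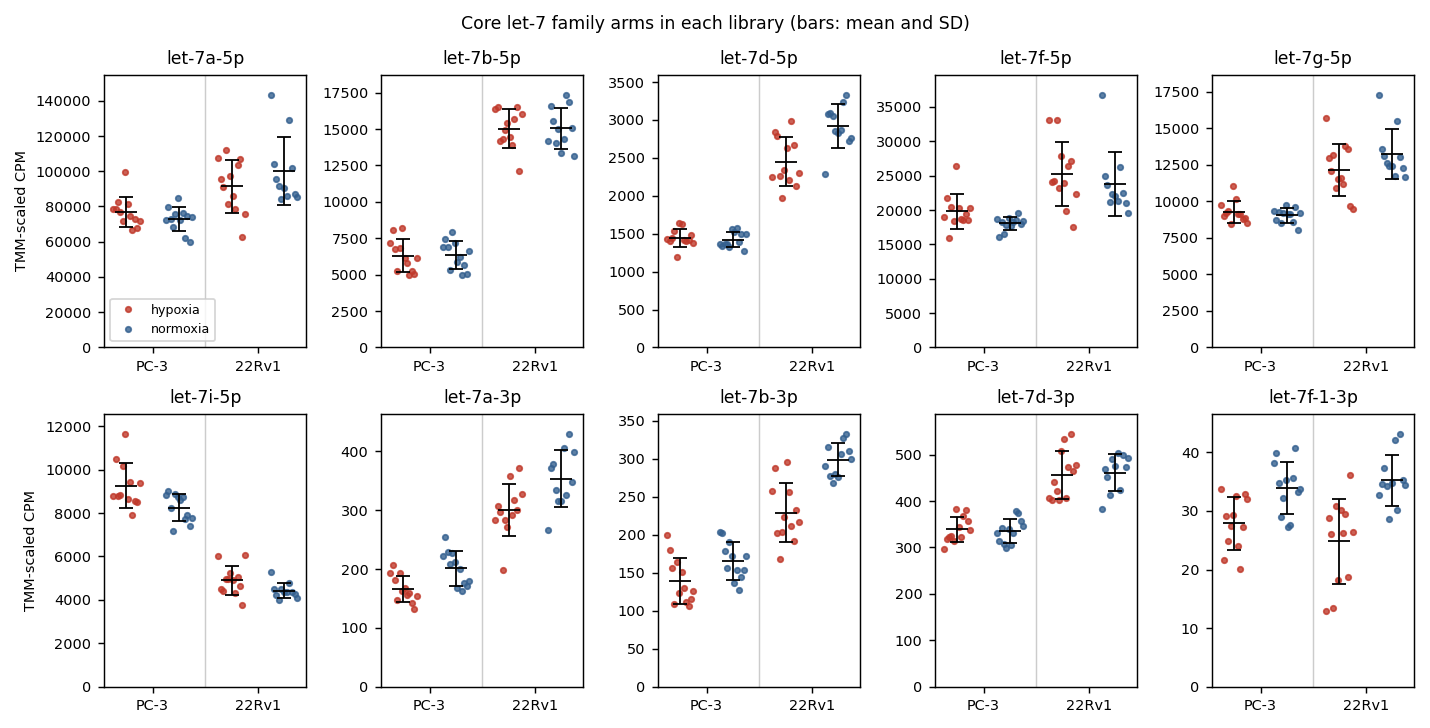
Each panel plots 1 member's CPM (scaled within a line, linear axis from 0) in every library, hypoxia in red and normoxia in blue, PC-3 left and 22Rv1 right, with the mean and SD as black bars. The 3 passengers let-7a-3p, let-7b-3p and let-7f-1-3p have lower hypoxia means in both lines, with points that overlap between the conditions, and let-7b-5p and let-7d-3p sit at about the same height in both conditions.

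Hypoxia was set against normoxia within each line as the mean of the 6 levels, each against its own controls, with edgeR's quasi-likelihood test and Benjamini-Hochberg adjustment over every entry tested. All 10 members passed the filter on low counts in both lines. In PC-3, 2 passengers fell (let-7a-3p and let-7f-1-3p) and 1 guide rose (let-7i-5p), while 7 members did not pass the test. In such bulk RNA, a change in the share of cells and in RNA per cell cannot be told apart. Over all entries tested, 51 of 463 entries passed (11%; 5.83% higher and 5.18% lower). The median log2 fold change of the 10 members was 0.02, that of the 6 guides 0.06 and that of the 4 passengers -0.27, beside -0.0044 for all 463 entries.

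The passenger let-7a-3p had 132 to 206 CPM (median 161) in PC-3 hypoxia libraries, against 163 to 255 CPM (median 204) in PC-3 normoxia libraries. The 2 groups overlapped as a whole, but hypoxia was the lower in 12 of 12 same-numbered pairs, as it was for 2.16% of the entries tested. In replicate 1 the 6 hypoxia libraries (148 to 206 CPM) all lay below the 6 normoxia libraries (208 to 255 CPM), a separation that 1.94% of entries showed in that direction. In replicate 2 they overlapped (132 to 168 CPM in hypoxia and 163 to 200 CPM in normoxia). By edgeR the log2 fold change was -0.28 ± 0.084 (SE, adjusted p = 0.0315). Without the 2 PC-3 libraries named above it was -0.26 (adjusted p = 0.0811). In a fit with a mean for each same-numbered pair of a level (the replicate block) it was -0.27 (adjusted p = 2.91e-05). Leaving out 1 library ended the call in 12 of 24 cases: any of the 6 normoxia libraries of replicate 1, the 0.5% O2 hypoxia library of replicate 1, or any hypoxia library of replicate 2 other than that at 0.5% O2 (log2 -0.28 to -0.23, adjusted p 0.0501 to 0.0856).

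The passenger let-7f-1-3p, the rarest member at 38 to 165 counts per PC-3 library, had 20.2 to 33.7 CPM (median 28.3) in PC-3 hypoxia libraries, against 27.3 to 40.8 CPM (median 34.3) in PC-3 normoxia libraries. The groups overlapped between 27.3 and 33.7 CPM, and hypoxia was lower in 11 of 12 pairs (6.48% of entries tested were lower in at least 11). Its log2 fold change was -0.30 ± 0.089 (SE, adjusted p = 0.0304). Without the 2 libraries it was -0.26 (adjusted p = 0.0953), and by DESeq2's Wald test -0.29 (adjusted p = 0.0589). Leaving out 1 library ended the call in 10 of 24 cases, with log2 values of -0.29 to -0.24 and adjusted p of 0.0502 to 0.0940. In replicate 1 these were the normoxia libraries of 5, 2 and 0% O2 and the hypoxia libraries of 2, 0.5, 0.2 and 0% O2, and in replicate 2 the hypoxia libraries of 5 and 1% O2 and the normoxia library of 0.5% O2.

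For let-7b-3p, the passenger of the chromosome 22 hairpin, PC-3 hypoxia libraries had 107 to 199 CPM (median 128) and PC-3 normoxia libraries 127 to 204 CPM (median 164). Hypoxia was lower in 11 of 12 pairs, and the groups overlapped over most of their range. Replicate 1 stood above replicate 2 in both conditions (means of 155 and 123 CPM in hypoxia, and of 184 and 148 CPM in normoxia), and within each replicate number the groups also overlapped. The log2 fold change was -0.27 ± 0.093 (SE) with adjusted p = 0.0727. With the replicate block it was -0.26 (adjusted p = 3.64e-05, and 0.000383 when the 2 libraries were also left out). It also passed with scaling by library size alone (log2 -0.31, adjusted p = 0.0179) and without 1 of 5 libraries: hypoxia replicate 1 at 2, 1 or 0.2% O2, or normoxia replicate 2 at 5 or 1% O2 (adjusted p 0.0305 to 0.0414).

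The fourth passenger, let-7d-3p, had 296 to 382 CPM (median 331) in PC-3 hypoxia libraries and 298 to 379 CPM (median 335) in PC-3 normoxia libraries, with hypoxia lower in 6 of 12 pairs. Its log2 fold change was 0.02 ± 0.055 (SE, adjusted p = 0.933), although its hairpin lies in the same chromosome 9 cluster as MIRLET7A1 and MIRLET7F1.

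Among the PC-3 guides, let-7i-5p had 7927 to 11635 CPM (median 8809) in hypoxia libraries and 7159 to 9027 CPM (median 8414) in normoxia libraries. Hypoxia was higher in 11 of 12 pairs (6.91% of entries were higher in at least 11), and the groups overlapped between 7927 and 9027 CPM. The log2 fold change was 0.16 ± 0.048 (SE, adjusted p = 0.0262), and without the 2 libraries it was the same in size (0.16) with adjusted p = 0.0727. Under the authors' own scaling factors it was 0.14 (adjusted p = 0.137). Leaving out hypoxia replicate 1 at 2, 0.2 or 0% O2, or normoxia replicate 2 at 0.2% O2, gave 0.14 to 0.15 (adjusted p 0.0505 to 0.0586). For let-7f-5p the values were 15912 to 26390 CPM (median 19227) in hypoxia and 16129 to 19570 CPM (median 18246) in normoxia, higher in 10 of 12 pairs. It missed the threshold (log2 0.13, adjusted p = 0.0979) and passed it with the replicate block (adjusted p = 0.0228), without hypoxia replicate 1 at 1% O2 (adjusted p = 0.0476) or without hypoxia replicate 2 at 0% O2 (adjusted p = 0.0243). The most abundant guide, let-7a-5p, had 66890 to 99436 CPM (median 75632) in hypoxia and 60057 to 84684 CPM (median 73413) in normoxia (log2 0.08, adjusted p = 0.418). The log2 fold changes of let-7b-5p, let-7d-5p and let-7g-5p were -0.01, 0.02 and 0.04, with adjusted p of 0.969, 0.82 and 0.681.

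With the 2 PC-3 libraries left out, no member passed in PC-3 by edgeR, where 42 entries did. In the fit of all libraries 5 members had an unadjusted p below 0.05. With the replicate block 5 members passed: let-7a-3p, let-7b-3p and let-7f-1-3p lower, let-7f-5p and let-7i-5p higher. The block called 109 of the 463 entries (23.5%). With both choices together, which called 86 entries, let-7a-3p, let-7b-3p, let-7f-5p and let-7i-5p passed, and let-7f-1-3p had adjusted p = 0.0583.

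In 22Rv1, 2 passengers (let-7b-3p and let-7f-1-3p) and 1 guide (let-7d-5p) fell, none rose, and 7 members did not pass the test. Over all entries tested, 75 of 552 entries passed (13.6%; 7.61% higher and 5.98% lower). The median log2 fold change was -0.11 over the 10 members, -0.05 over the 6 guides and -0.31 over the 4 passengers, beside 0.011 over all 552 entries.

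The passenger let-7b-3p had 168 to 296 CPM (median 220) in 22Rv1 hypoxia libraries, against 268 to 332 CPM (median 299) in 22Rv1 normoxia libraries. Hypoxia was the lower in 11 of 11 pairs, as for 2.17% of entries tested. In replicate 2 the hypoxia libraries (191 to 296 CPM) all lay below the normoxia libraries (299 to 332 CPM), as for 1.45% of entries, and in replicate 1 they overlapped (168 to 287 CPM in hypoxia and 268 to 316 CPM in normoxia). This gave a log2 fold change of -0.39 ± 0.068 (SE, adjusted p = 0.000335), and leaving out any 1 library of 22Rv1 kept it between -0.42 and -0.37 and past the threshold.

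The rare let-7f-1-3p had 13 to 36.2 CPM (median 26.4) in 22Rv1 hypoxia libraries, which is 11 to 146 counts, against 28.6 to 43.1 CPM (median 34.6) in 22Rv1 normoxia libraries, or 22 to 118 counts. It was lower in 10 of 11 pairs (6.16% of entries were lower in at least 10), and the overlap came from hypoxia libraries of the 5, 2, 1 and 0.2% O2 levels. The log2 fold change of -0.50 ± 0.117 (SE, adjusted p = 0.00629) was the largest mean effect of any member in either line by absolute size.

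The guide let-7d-5p had 1968 to 2982 CPM (median 2321) in 22Rv1 hypoxia libraries and 2285 to 3332 CPM (median 2866) in 22Rv1 normoxia libraries. Hypoxia was lower in 11 of 11 pairs, while the groups overlapped between 2285 and 2982 CPM. The log2 fold change was -0.25 ± 0.070 (SE, adjusted p = 0.0175). Scaled by library size alone it was -0.32 with adjusted p = 0.109. It was -0.21 without the single 0.2% O2 control (adjusted p = 0.0911) and -0.23 without hypoxia replicate 2 at 2% O2 (adjusted p = 0.0550). Its own passenger, let-7d-3p, had 402 to 544 CPM (median 453) in 22Rv1 hypoxia and 383 to 504 CPM (median 473) in 22Rv1 normoxia (log2 -0.02, adjusted p = 0.89).

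Also in 22Rv1, let-7a-3p had 199 to 371 CPM (median 298) in hypoxia and 267 to 429 CPM (median 347) in normoxia, lower in 10 of 11 pairs. It missed the threshold (log2 -0.22 ± 0.092, SE, adjusted p = 0.12) and passed it with the replicate block (log2 -0.26, adjusted p = 0.00441). It passed as well without normoxia replicate 1 at 5% O2 (adjusted p = 0.0389) or hypoxia replicate 2 at 0.5% O2 (adjusted p = 0.0420). The guide let-7i-5p had 3785 to 6068 CPM (median 4933) in hypoxia and 3986 to 5265 CPM (median 4372) in normoxia, higher in 10 of 11 pairs (8.7% of entries were higher in at least 10). It likewise passed only with the block (log2 0.14, adjusted p = 0.211, and 0.17 with adjusted p = 0.0319 in the blocked fit). The log2 fold changes of let-7a-5p, let-7b-5p, let-7f-5p and let-7g-5p were -0.11, 0.0014, 0.09 and -0.12, with adjusted p of 0.537, 0.996, 0.641 and 0.378. Without the 3 libraries of 22Rv1 that lay apart, 3 members were called, among 74 entries called in all. The block called 5 members (164 of 552 entries, 29.7%), the 3 named first together with let-7a-3p lower and let-7i-5p higher. With the block and without the 3 libraries let-7f-5p passed as well, higher in hypoxia (log2 0.13, adjusted p = 0.0282). This made 6 members, among 178 entries called in all.

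**Figure D2:**
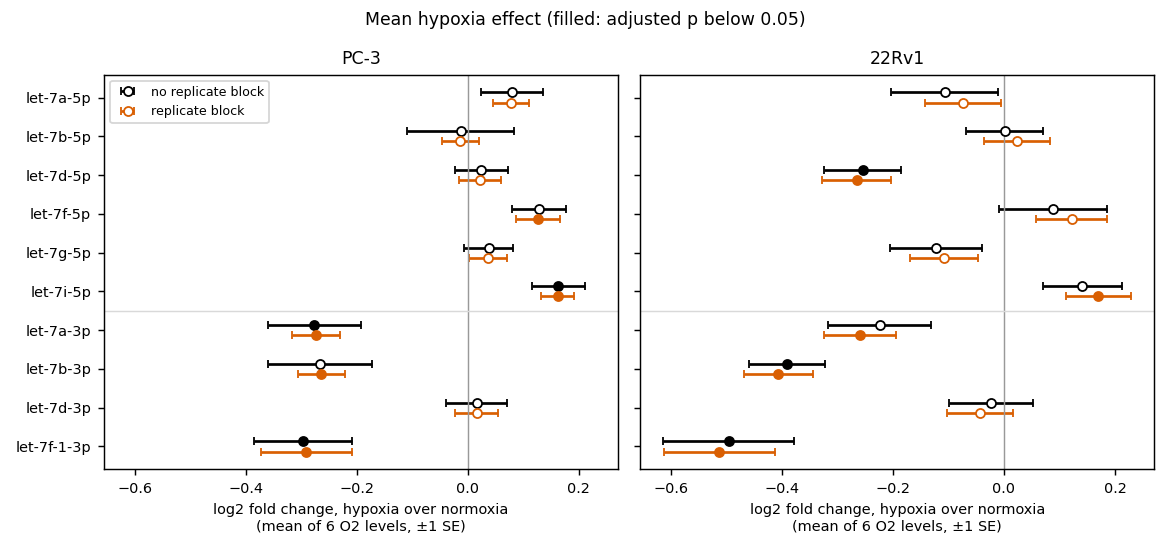
Points give each member's mean hypoxia effect over 6 O2 levels as a log2 fold change, hypoxia over normoxia, with 1 SE, in PC-3 (left) and 22Rv1 (right), black without and orange with the replicate block, filled where adjusted p is below 0.05. Guides stand above the grey line and passengers below it, and let-7a-3p, let-7b-3p and let-7f-1-3p lie between -0.51 and -0.22 in both lines and both fits.

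The change with hypoxia was then compared between the lines, as PC-3 minus 22Rv1. No member passed this test by edgeR, where 18 of 613 entries did (2.94%), and 1 of 10, let-7d-5p, had an unadjusted p below 0.05. Its difference was 0.26 ± 0.093 (SE, adjusted p = 0.136), beside a log2 change of 0.02 within PC-3 and -0.25 within 22Rv1. It passed with the replicate block (0.27, adjusted p = 0.0141), which called 9.95% of entries, and with DESeq2's Wald test (0.29, adjusted p = 0.013). For the 3 passengers with the UAUACAA seed the differences were -0.07 ± 0.135 (let-7a-3p), 0.11 ± 0.125 (let-7b-3p) and 0.18 ± 0.145 (let-7f-1-3p) (SE), none past the threshold.

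By single O2 level, no member passed in PC-3 by edgeR, where 0 to 13 of 463 entries did at a level (from 5% O2 down to 0% O2, the share called was 0%, 0.648%, 0.648%, 0.864%, 1.51% and 2.81%). Of the 60 member-by-level tests, 5 had an unadjusted p below 0.05, and with DESeq2's size factors the count of calls was also 0. In PC-3, let-7a-3p had a negative log2 fold change at 6 of 6 levels, between -0.41 at 0.5% O2 and -0.12 at 5% O2. In the same line let-7b-3p and let-7f-1-3p were negative at 5 of 6 levels each, the exception being 5% O2 (0.04 and 0.02). The 2 hypoxia libraries of a level both lay below its 2 controls at 4 of 6 levels for let-7f-1-3p (2, 1, 0.5 and 0% O2) and at 2 of 6 levels each for let-7a-3p and let-7b-3p (0.5 and 0% O2), where 19.7% of all entries by level were so placed.

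In 22Rv1, let-7b-3p and let-7f-1-3p passed at 0.5% O2, where 17 of 552 entries did (3.08%; 1.27% lower). No member passed there at 5% O2 (0% of entries), 2% (0.362%), 1% (0.725%), 0.2% (0.906%) or 0% (4.71%), and 9 of the 60 member-by-level tests had an unadjusted p below 0.05. At that level let-7b-3p had 168 and 191 CPM in hypoxia, against 268 and 310 CPM in normoxia (log2 -0.69 ± 0.162, SE, adjusted p = 0.0226). There let-7f-1-3p had 13.5 and 18.7 CPM in hypoxia, against 34.3 and 35.3 CPM in normoxia (log2 -1.10 ± 0.292, SE, adjusted p = 0.0426), and the hypoxia pair lay below both controls. The first of those hypoxia libraries is 1 of the 3 that lay apart. Leaving out either 0.5% control or hypoxia replicate 1 ended both calls, 11 other single omissions left 1 of them, and scaling by library size alone ended both.

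Hypoxia libraries of 22Rv1 lay below all controls of their level at 5 of 6 levels for let-7b-3p, let-7d-5p and let-7f-1-3p, and at 3 of 6 for let-7a-3p (22.9% of entries by level). The 0.2% level, which has 1 control, was the exception for let-7f-1-3p: its hypoxia libraries had 30.8 and 36.2 CPM and its control 28.6 CPM. At 0% O2 let-7i-5p had 5246 and 6068 CPM in hypoxia and 4359 and 4101 CPM in normoxia in 22Rv1 (log2 0.42, adjusted p = 0.221). In PC-3 it had 11635 and 9394 CPM in hypoxia and 8745 and 7774 CPM in normoxia at that level (log2 0.35, adjusted p = 0.122).

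With the replicate block 5 member-by-level tests passed in PC-3, at 0.5 and 0% O2, and 5 in 22Rv1, at 1 and 0.5% O2. In PC-3 they were let-7a-3p (log2 -0.40) and let-7b-3p (-0.48) at 0.5% O2 and let-7b-3p (-0.46), let-7f-5p (0.31) and let-7i-5p (0.34) at 0% O2, where the block called 4.75% and 7.99% of entries. In 22Rv1 they were let-7b-3p at 1% O2 (-0.55), where 4.35% of entries were called, and let-7a-3p (-0.47), let-7b-3p (-0.69), let-7f-1-3p (-1.10) and let-7f-5p (0.50) at 0.5% O2, where 19.4% were. At the levels where no member passed, the blocked fit called 0.432% (5% O2), 6.26% (2%), 3.24% (1%) and 6.7% (0.2%) of entries in PC-3. In 22Rv1 the shares without a member were 0.181% (5% O2), 1.27% (2%), 2.9% (0.2%) and 9.24% (0%).

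By edgeR no member had a trend, or an unadjusted p below 0.05 for one, over the 6 levels past the threshold in either line (0.216% of entries in PC-3 and 0.181% in 22Rv1 passed). The smallest unadjusted p was that of let-7i-5p in PC-3, with a slope of 0.06 log2 units per step towards 0% O2 (edgeR, adjusted p = 0.995). No entry passed a test of differences among the control sets of the 6 levels in either line (0 of 463 and 0 of 552 by edgeR, also with DESeq2's size factors). In it 13 and 3 entries had an unadjusted p below 0.05, and the smallest of a member was 0.268, for let-7a-5p in 22Rv1. With 1 or 2 libraries a set, the test cannot show that the sets are alike.

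**Figure D3:**
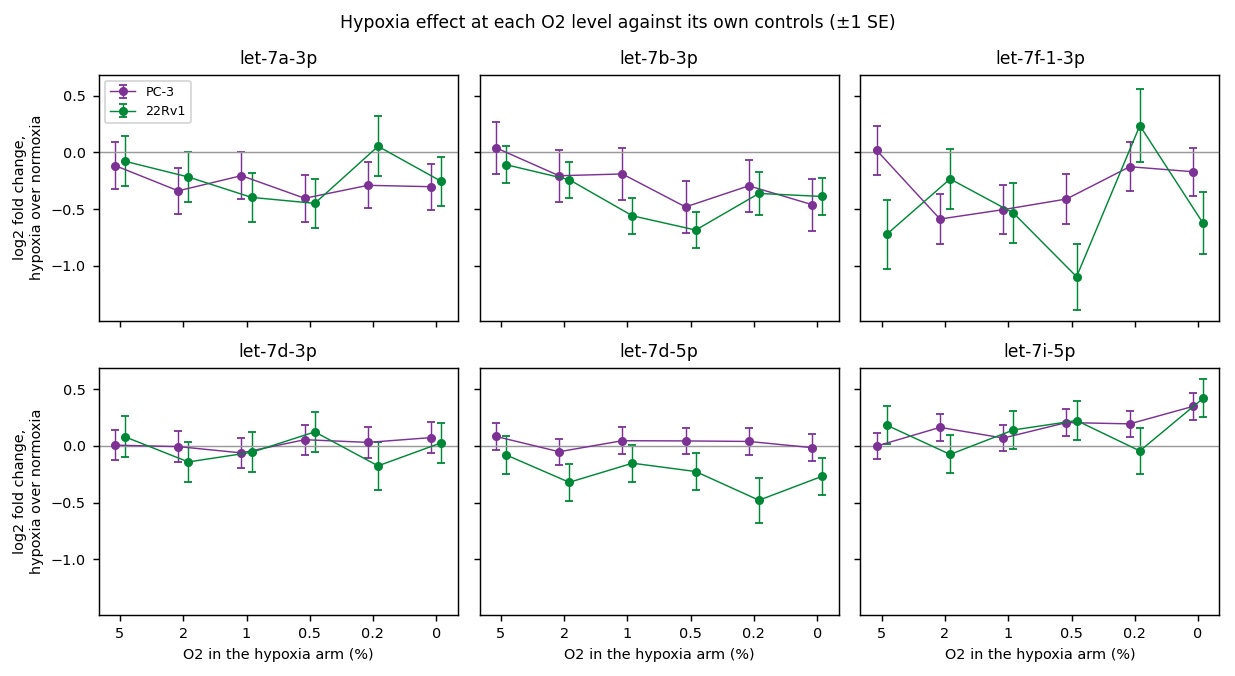
The log2 fold change of 6 members at each O2 level of the hypoxia arm against its own controls is plotted with 1 SE, PC-3 in purple and 22Rv1 in green, O2 falling from left to right. The passengers let-7a-3p, let-7b-3p and let-7f-1-3p run mostly below the zero line with the lowest point of 22Rv1 at 0.5% O2, let-7d-3p stays near it, let-7d-5p is below it at 6 of 6 levels in 22Rv1, and let-7i-5p ends highest at 0% O2.

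The ratio of passenger to guide within a library does not depend on how libraries are scaled. It was tested over all hairpins with both arms counted, using limma on log2((3p + 0.5)/(5p + 0.5)). The guide count of let-7a can also hold guide from MIRLET7A2, and that of let-7f-1 from MIRLET7F2, whose passengers are counted apart. The ratio rests on the same counts as the tests above. The share of all hairpins that reach the pair counts given below for ratios was not worked out. In PC-3 the ratio fell for let-7a, let-7b and let-7f-1 and did not pass the test for let-7d. Over all hairpins tested, 18 of 140 hairpins passed (12.9%; 7.86% lower).

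In PC-3 the let-7a-3p count was 0.164 to 0.269% (median 0.211%) of the let-7a-5p count in hypoxia libraries, against 0.233 to 0.32% (median 0.274%) in normoxia libraries, and was lower in hypoxia in 12 of 12 pairs. The log2 change was -0.35 ± 0.084 (SE, adjusted p = 0.00968). For let-7b the passenger stood at 1.51 to 2.77% (median 2.24%) of the guide in hypoxia and 2.34 to 3.06% (median 2.57%) in normoxia, lower in 11 of 12 pairs (log2 -0.25 ± 0.068, SE, adjusted p = 0.0186). The groups overlapped for both hairpins, more for let-7b than for let-7a.

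For let-7f-1-3p over let-7f-5p, which can also count guide from MIRLET7F2, the percentages in PC-3 were 0.0996 to 0.184% (median 0.145%) in hypoxia and 0.151 to 0.248% (median 0.186%) in normoxia. Hypoxia was lower in 11 of 12 pairs, with a log2 change of -0.41 ± 0.107 (SE, adjusted p = 0.016). The let-7d passenger was far closer to its guide, at 20.7 to 26.9% in hypoxia and 20.1 to 28.1% in normoxia (log2 -0.0067 ± 0.064, SE, adjusted p = 0.978). The 3 calls held when any 1 PC-3 library, or the 2 PC-3 libraries high in miR-143-3p, were left out, and with the block (15.7% of hairpins called). With no filter, where every hairpin with both arms in the table was tested, they missed the threshold (adjusted p of 0.0573, 0.11 and 0.0776 for let-7a, let-7b and let-7f-1). With the block and the 2 libraries left out together let-7a passed, and let-7b and let-7f-1 had adjusted p of 0.069 and 0.096.

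In 22Rv1 the ratio fell for let-7b only, where 13 of 161 hairpins passed (8.07%; 4.35% lower). The let-7b passenger was 1.16 to 2.05% (median 1.44%) of its guide in hypoxia libraries and 1.78 to 2.27% (median 1.97%) in normoxia libraries, lower in 11 of 11 pairs (log2 -0.39 ± 0.092, SE, adjusted p = 0.0261). Leaving out any of 5 replicate 2 libraries (hypoxia at 2, 1 or 0% O2, normoxia at 1 or 0.5% O2) moved its adjusted p to between 0.0507 and 0.0597, and the test with no filter to 0.105. For let-7f-1 the percentages were 0.0392 to 0.206% (median 0.115%) in hypoxia and 0.0892 to 0.198% (median 0.158%) in normoxia. Its change of -0.62 ± 0.206 on the log2 scale (SE) missed the threshold at adjusted p = 0.0799. It was -0.52 without the 3 libraries that lay apart (adjusted p = 0.0418) and -0.67 with the block (adjusted p = 0.0141, 14.3% of hairpins called). It also passed under the stricter filter (0.0494) and without 1 of 3 libraries: normoxia replicate 1 at 5% O2, the 0.2% O2 control, or hypoxia replicate 2 at 5% O2 (adjusted p 0.0153 to 0.0364).

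For let-7a the 22Rv1 ratio was 0.178 to 0.59% in hypoxia and 0.186 to 0.472% in normoxia (log2 -0.12, adjusted p = 0.842), lower in 9 of 11 pairs. For let-7d it went the other way, at 14.2 to 21.8% (median 19.4%) in hypoxia and 13.1 to 17.8% (median 16.8%) in normoxia, higher in 10 of 11 pairs (log2 0.23 ± 0.089, SE, adjusted p = 0.127). The change in ratio did not pass a test of the difference between the lines for any of the 4 hairpins (4 of 120 hairpins did, 3.33%), the smallest adjusted p being 0.193 for let-7d.

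Taken over all hairpins, the less abundant arm had a median log2 hypoxia effect of -0.08 in PC-3 (140 arms, 15 of them called lower and 8 higher) and -0.03 in 22Rv1 (161 arms, 15 lower and 17 higher). The values of let-7a-3p, let-7b-3p and let-7f-1-3p were below both medians. Those of let-7d-3p, the other member passenger, were not (0.02 in PC-3 and -0.02 in 22Rv1). The more abundant arm had medians of 0.02 (132 arms) and 0.04 (153 arms).

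**Figure D4:**
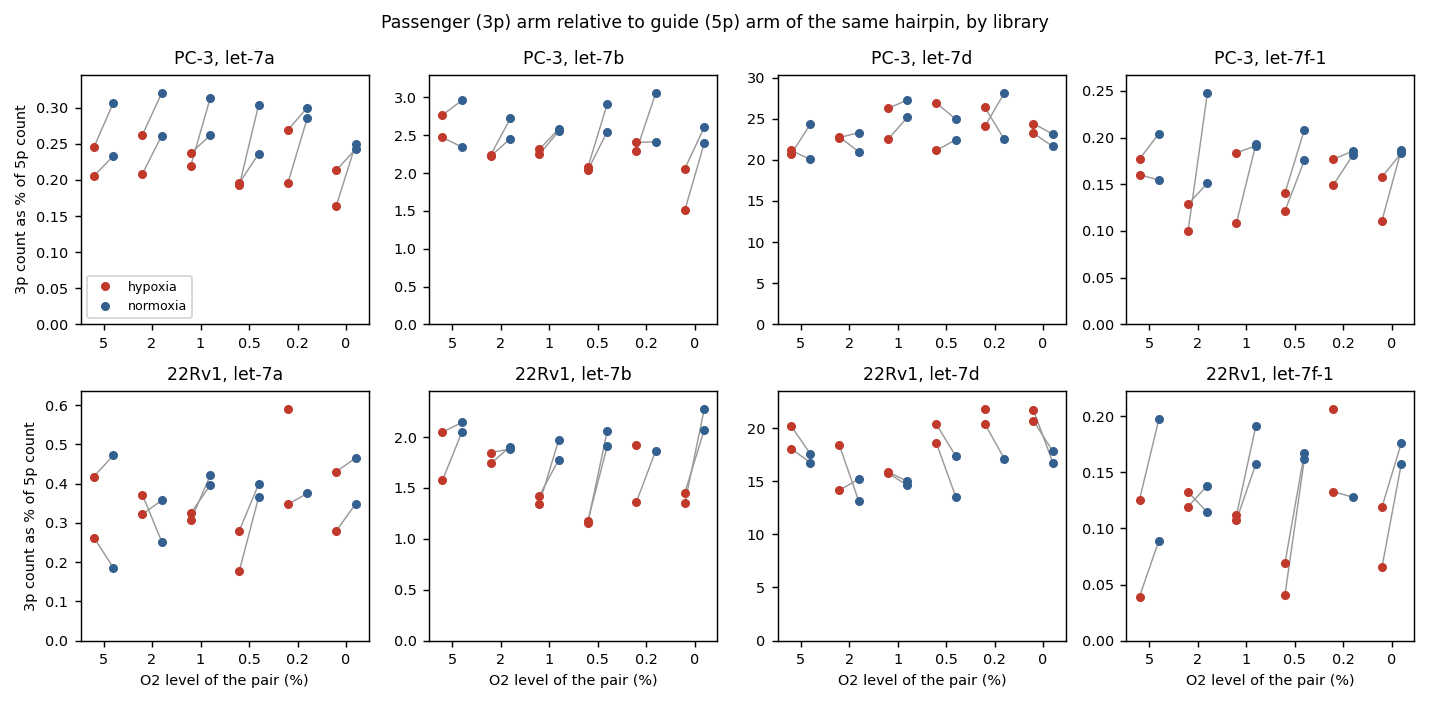
Each panel shows the count of the 3p arm as a percentage of the count of its 5p guide in every library, by O2 level. Hypoxia (red) is left of normoxia (blue), with same-numbered libraries joined and linear axes from 0. The 5p counts of let-7a and let-7f-1 can also hold guide from other loci. In PC-3 all 12 joined pairs of let-7a slope up to normoxia, as do 11 of 12 of let-7b and let-7f-1, whereas let-7d pairs slope both ways.

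Between the lines in normoxia, set as PC-3 over 22Rv1 with CPM scaled over both lines, let-7i-5p and let-7f-1-3p were higher in PC-3 and let-7b-5p, let-7d-5p, let-7b-3p and let-7a-3p were lower. This is 6 of 10 members, beside 527 of 613 entries (86%; 39.6% higher and 46.3% lower). The median over all entries was -0.15, and with scaling by library size alone it moved to -0.60.

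The guide let-7i-5p had 8374 to 10389 CPM in PC-3 normoxia libraries (9569 ± 693, SD, n = 12) and 3369 to 4471 CPM in 22Rv1 normoxia libraries (3787 ± 322, n = 11), with no overlap (log2 1.33 ± 0.072, SE, adjusted p = 2.26e-19). In the other direction let-7b-5p had 5792 to 9228 CPM in PC-3 and 10820 to 15334 CPM in 22Rv1 (log2 -0.81 ± 0.088, SE, adjusted p = 1.15e-10). Likewise let-7d-5p had 1498 to 1837 CPM in PC-3 and 1940 to 3032 CPM in 22Rv1 (log2 -0.60 ± 0.067, SE, adjusted p = 2.43e-10). These 3 guides were the members whose ranges did not overlap between the lines, where 57.7% of entries did not overlap.

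For let-7b-3p, PC-3 had 148 to 236 CPM and 22Rv1 226 to 302 CPM (log2 -0.41, adjusted p = 8.88e-05), and for let-7a-3p, PC-3 had 190 to 291 CPM and 22Rv1 227 to 391 CPM (log2 -0.37, adjusted p = 0.000754). The rare let-7f-1-3p had 31.2 to 46.7 CPM in PC-3 and 24.6 to 39.2 CPM in 22Rv1 (log2 0.41, adjusted p = 0.000304), and its difference was -0.06 with scaling by library size alone. The differences of let-7a-5p, let-7f-5p, let-7g-5p and let-7d-3p were 0.0056, 0.05, -0.10 and -0.03, none past the threshold. Under library size scaling those 4 differences were -0.44, -0.39, -0.55 and -0.50, all past the threshold, and 9 members were called, let-7i-5p higher and 8 lower, with let-7f-1-3p the one not called. With the stricter filter (20 CPM in 6 libraries) 8 members were called, the 6 above together with let-7g-5p (-0.22) and let-7d-3p (-0.15) lower. Relative to the median of all entries, let-7i-5p stood at 1.48 in both scalings and let-7b-5p at -0.66 and -0.67. A change of scaling moves all entries by nearly the same amount. Values relative to the median are thus bound to agree between scalings, and they do not test the calls.

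As a share of the 6 guide counts, which scaling does not touch, let-7i-5p made up 7.54 ± 0.55% in PC-3 hypoxia libraries (SD, n = 12), 7.13 ± 0.37% in PC-3 normoxia libraries (n = 12), 3.28 ± 0.51% in 22Rv1 hypoxia libraries (n = 12) and 2.81 ± 0.26% in 22Rv1 normoxia libraries (n = 11). In the same order, let-7b-5p made up 5.10 ± 0.62%, 5.45 ± 0.56%, 10.1 ± 1.11% and 9.58 ± 1.17%. The largest share, that of let-7a-5p, was 62.5 ± 1.45%, 62.7 ± 1.52%, 60.4 ± 1.57% and 62.5 ± 1.80%. All 6 carry the same seed, so these are shares of the member pool that reads that seed.

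**Figure D5:**
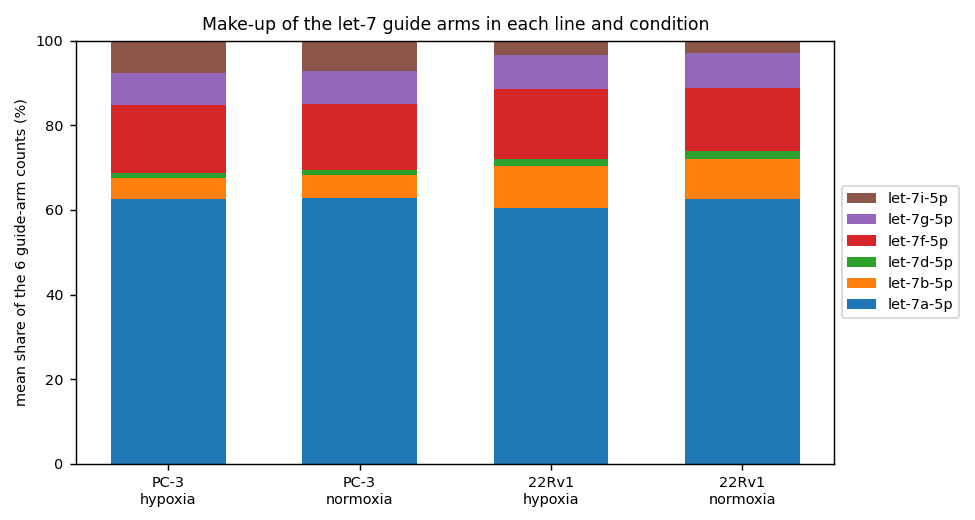
Stacked bars give the mean share (%) of each guide in the summed counts of the 6 guide arms, for hypoxia and normoxia libraries of PC-3 (left) and 22Rv1 (right). The blue let-7a-5p bar spans 60.4 to 62.7% in every group, while let-7i-5p (brown) takes 7.54 and 7.13% in PC-3 against 3.28 and 2.81% in 22Rv1.

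The entries whose levels moved most like those of 3 members were sought outside the family, by the mean of the Pearson correlations of log2(CPM + 1) across the 24 PC-3 and the 23 22Rv1 libraries, among 232 entries of at least 20 CPM. The libraries share their scaling and their hypoxia contrast, so the coefficients are descriptive. For let-7f-1-3p they were miR-4521 (mean r 0.67), miR-17-5p (0.67) and miR-93-3p (0.66). For let-7a-5p they were miR-151a-5p (0.68), miR-9-5p (0.59) and miR-99b-5p (0.56), and for let-7d-3p they were lower, with miR-183-3p (0.48), miR-193a-3p (0.44) and miR-106b-5p (0.44).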

How the data were processed

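Small RNA libraries of 47 cell line samples were analysed as deposited. Per the labels' protocols, total RNA was extracted with miRNeasy, libraries were made with the TruSeq Small RNA kit and the cDNA was size-selected on a gel. The authors deposited raw counts per mature microRNA and a CPM table of the same entries, normalized by TMM going by the name it was deposited under. Within a library that CPM table was the count times a constant (relative spread at most 3.1e-09), and it served as an alternative scaling. The submitters' processing notes name FastQC and hg19. Which aligner and counter were used, and how reads matching several loci were treated, is not given in the sources used here. No member shared its counts with another entry.

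An entry was tested where 2 or more libraries reached 5 CPM, which left 463 for PC-3, 552 for 22Rv1 and 613 for the lines together. Counts were scaled by TMM and tested with edgeR 4.0.16 (glmQLFit, glmQLFTest) on all groups of a line, or of both lines for comparisons between them. Arm ratios were tested with limma 3.58.1 and a pseudocount of 0.5. The threshold was an adjusted p of 0.05, with Benjamini-Hochberg adjustment over every entry or hairpin tested. PC-3 had a common biological coefficient of variation of 15.3%, and 22Rv1 one of 17.7%. The fit assumes that the single 22Rv1 control at 0.2% O2 varies like the other groups. Functions were tested on simulated data.

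The labels number the replicates 1 and 2 in each group and name the level each control belongs to. Same-numbered hypoxia and normoxia libraries deviated together at each level with 2 controls (r of 0.301 to 0.665 in PC-3 and 0.113 to 0.397 in 22Rv1, over entries). The 0.2% O2 level of 22Rv1, with 1 control, was not checked. A difference between replicates 1 and 2 shared by all levels would also give positive values, so this does not show pairing at a level. The replicate block fitted a mean for each same-numbered pair of each level. In it the 0.2% O2 level of 22Rv1 rested on 1 pair. The blocked fit is given where it changes a call. Alternatives were other scalings, filters, a pseudocount of 2, DESeq2 1.42.0, the block and leaving out each library. The choice to leave out libraries that stood apart was made after seeing the data. The members and lists were chosen with earlier results of these data known. Named entries were the 10 members, other let-7 or miR-98 entries that passed a test, miR-210-3p and the 3 likest entries of 3 members. Sequences and hairpin coordinates are from RefSeq on GRCh38.p14 and host genes from GENCODE 29, a build other than the hg19 of the processing notes, so no coordinate of the files was used.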

Additional observations from a re-analysis of the deposited data

How the results depend on the processing

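Counts of members called, out of 10, or of 4 hairpins for arm ratios, moved as follows. With the replicate block the mean hypoxia effect called 5 members in PC-3 and 5 in 22Rv1, single levels called 5 in each line, the arm ratio called 2 in 22Rv1 and the line difference called 1; the block changed no other call. Without the libraries that stood apart, the mean effect in PC-3 called 0, single levels in 22Rv1 called 1 and the arm ratio in 22Rv1 called 2. With the block and those libraries left out, the mean effect in 22Rv1 called 6 (let-7f-5p added, log2 0.13), single levels 4 in PC-3 and 11 in 22Rv1, the arm ratio 1 in PC-3 and 2 in 22Rv1, and the line difference 1. Library size alone gave 0 calls at single levels in 22Rv1. With no filter the arm ratio called 0 in either line, and with the stricter filter (20 CPM in 6 libraries) it called 2 in 22Rv1. DESeq2's test called 1 line difference. Leaving out 1 library gave 1 to 5 members for the mean effect in PC-3, 2 to 4 in 22Rv1, 0 to 2 for single levels in 22Rv1, 0 to 2 for the arm ratio in 22Rv1 and 6 to 7 between the lines. Between the lines in normoxia 6 members were called, 9 with library size alone and 8 with the stricter filter. With library size alone that difference was -0.44 for let-7a-5p, -0.39 for let-7f-5p, -0.55 for let-7g-5p, -0.50 for let-7d-3p and -0.060 for let-7f-1-3p, and let-7g-5p passed in 10 omissions (log2 -0.19 to -0.14). The cause was not tested.

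Counts over all entries moved by more than 1.5 times in these cases, single omissions aside. The mean effect called 51 entries in PC-3, 109 with the block and 86 with block and libraries left out, and 75 in 22Rv1, 46 by library size, 164 with the block and 178 with both. The line difference called 18, with 7 by library size, 10 under the stricter filter, 61 with the block, 9 without the libraries and 44 with both. The normoxia comparison called 527, and 348 under the stricter filter. At single levels PC-3 had 30 calls, 18 by library size, 18 with the authors' factors, 136 with the block and 121 with both, and 22Rv1 had 54, with 21 by library size, 206 with the block and 304 with both. Trends were called for 0 to 3 entries in PC-3 and 0 to 37 in 22Rv1 over the settings, from 1 in each, and the line difference in arm ratio for 4 hairpins, 1 with no filter and 8 with the block, libraries left out or not. The arm ratio called 18 hairpins in PC-3 and 11 with no filter, and 13 in 22Rv1, 4 with no filter and 23 with the block. Leaving out 1 library gave 12 to 38 calls at single levels in PC-3 and 29 to 76 in 22Rv1, 0 to 3 trends in PC-3 and 1 to 8 in 22Rv1, 4 to 18 arm ratios in 22Rv1, 9 to 37 line differences and 2 to 7 line differences in arm ratio. The rarest member, let-7f-1-3p, rests on 11 to 165 counts a library, and the single 22Rv1 control at 0.2% O2 limits that level.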

Other observations

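The count table held 10 further let-7 and miR-98 entries, of which 9 were tested in PC-3 and 8 in 22Rv1. None of them passed the test of the mean hypoxia effect in either line by edgeR's quasi-likelihood test. With the replicate block, let-7e-5p (log2 0.12, adjusted p = 0.017) and miR-98-5p (log2 0.09, adjusted p = 0.0449), both guides with the let-7 seed, were higher in PC-3 hypoxia, and let-7f-2-3p (log2 -0.28, adjusted p = 0.0477), the passenger of the chromosome X copy of let-7f, was lower in 22Rv1 hypoxia. The passenger of miR-98, which has the same seed as let-7a-3p, let-7b-3p and let-7f-1-3p, had 98.6 to 141 CPM in PC-3 hypoxia libraries and 89.6 to 132 CPM in PC-3 normoxia libraries, higher in 8 of 12 pairs (log2 0.04, adjusted p = 0.781). It had 62.9 to 106 CPM in 22Rv1 hypoxia libraries and 70.1 to 115 CPM in 22Rv1 normoxia libraries, lower in 8 of 11 pairs (log2 -0.09, adjusted p = 0.646). With the block and without the libraries that stood apart, miR-98-3p was lower in 22Rv1 hypoxia (log2 -0.20, adjusted p = 0.0199), let-7e-5p and miR-98-5p kept their calls in PC-3, and let-7f-2-3p did not pass in 22Rv1. Of the hairpins with 1 arm among the members, let-7i had a lower ratio of 3p to 5p in PC-3 hypoxia (log2 -0.29, adjusted p = 0.018, limma), and let-7g did not pass in either line.

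Between the lines in normoxia, 86% of all 613 entries passed (39.6% higher and 46.3% lower in PC-3). Of the 9 other let-7 and miR-98 entries tested, 8 were higher in PC-3 and let-7c-5p was lower (log2 -0.49, adjusted p = 1.2e-05, edgeR). One of the 8 was let-7a-2-3p, the passenger of the let-7a copy in an intron of MIR100HG on chromosome 11. It stood at 37.9 to 66.1 CPM in PC-3 normoxia libraries and at 0 to 0.336 CPM in 22Rv1 normoxia libraries, while the let-7a-5p that the same hairpin also yields did not differ past the threshold between the lines (it was lower in PC-3, at -0.44, with scaling by library size alone). The passengers let-7i-3p (log2 1.91), let-7e-3p (1.75) and let-7f-2-3p (1.25) were also higher in PC-3. The median of all entries moves between -0.09 and -0.60 with the scaling, a shift larger than the difference of let-7g-3p (0.34), so its direction rests on the scaling.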
